A study of Mus musculus with 6 samples.

Results

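This section describes Trp53, the gene of the transcription factor p53, with 9 genes that p53 is known to switch on and whose best known roles lie outside apoptosis: Mdm2, Ccng1, Zmat3, Btg2, Phlda3, Sesn1, Trp53inp1, Eda2r and Gdf15. The 10 genes were chosen by name, with earlier results of these data known. All 10 were found among the 55416 genes of the deposited table and passed the filter on low counts, which left 15269 genes for testing. Primary mouse chondrocytes, labelled as wild type, received either a scrambled siRNA as control (siNC, 3 libraries) or an siRNA that targets Pkm2 (siPkm2, 3 libraries), and their RNA was sequenced. Pkm encodes the glycolytic enzyme pyruvate kinase, and Pkm2 is one of its splice forms. The sample labels name neonatal mouse knee joints as the source, whereas the supplementary methods name mice of 8 to 10 weeks, with siRNA at 50 nM. The genotype labels of siPkm2 replicates 2 and 3 read PKM3 and PKM4 knockdown, but their titles name siPkm2, and they were taken as siPkm2. No source used here says whether the 3 cultures of a group came from separate animals, so the p-values below measure the spread between these libraries, which may be technical.

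In an unstressed cell p53 protein is made and destroyed at a steady rate, because the ubiquitin ligase Mdm2 marks it for the proteasome. Damage to DNA, growth signals or stress of the nucleolus loosen that hold, p53 accumulates, and it binds a response element made of 2 copies of a short half-site near its target genes. The targets stop the cell cycle, slow growth signalling, repair DNA, change metabolism or kill the cell, and Mdm2 is itself a target, which closes a negative feedback loop. Since p53 is controlled mostly at the protein level, the mRNA of Trp53 says little about p53 activity, and neither the protein nor its modifications were measured in these libraries. In cartilage the pathway is best known for its part in chondrocyte senescence, together with the cell-cycle inhibitors p21 (Cdkn1a) and p16 (Cdkn2a). The name "non-apoptotic" is a grouping by main role: Trp53inp1 and Eda2r have also been tied to cell death.

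The p53 response element was sought in the promoter windows of RefSeq (assembly GRCm38.p6), each reaching from 250 bases before to 50 bases after a start of transcription. Of the 10 genes, 8 had a window; Zmat3 and Trp53inp1 did not. The search allowed 0 to 13 bases between the half-sites and read both strands at once, since the half-site is its own reverse complement. Among all 32851 windows of the same length, 0.0731% held an element with no mismatch, 1.09% held one with at most 1 mismatch, and 10.1% held one with at most 2. Ccng1 had an element with 1 mismatch at 195 to 176 bases before its start, with no base between the half-sites. Sesn1 had one with 2 mismatches at 186 to 164 bases before the second of its starts. Trp53 and Mdm2 each held an exact half-site, as did the Ccng1 window, the second Sesn1 window and 8.36% of all windows. The best match in the Mdm2, Btg2, Phlda3, Eda2r and Gdf15 windows had 4 mismatches, a level reached by 89.3% of all windows. Cdkn1a, the classic target, is shown for comparison. A window of this gene held an element with no mismatch at 73 to 42 bases before the start, with 12 bases between the half-sites. The closest matches are shown so that the half-sites can be compared by eye with that of Cdkn1a. Each is given 5′ to 3′ on the strand of its gene, with the half-sites in capitals. A match of letters is not a measured binding site. Elements outside these windows were not sought, so a poor match here does not mean that a gene lacks an element.

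Ccng1 element, chr11:40755462-40755481, minus strand: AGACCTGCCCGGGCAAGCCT
Sesn1 element, chr10:41887253-41887275, plus strand: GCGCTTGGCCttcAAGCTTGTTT
Trp53 half-site, chr11:69580284-69580293, plus strand: GGACTTGCCC
Mdm2 half-site, chr10:117710935-117710944, minus strand: GAACTTGCCT
Cdkn1a element, chr17:29090906-29090937, plus strand: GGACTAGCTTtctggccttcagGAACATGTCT

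The Ccng1 element lies in the following 250 bases before the RefSeq start, chr11:40755287-40755536, minus strand, printed whole because it holds the closest match among the 8 genes, again with the half-sites in capitals.

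Ccng1 upstream region: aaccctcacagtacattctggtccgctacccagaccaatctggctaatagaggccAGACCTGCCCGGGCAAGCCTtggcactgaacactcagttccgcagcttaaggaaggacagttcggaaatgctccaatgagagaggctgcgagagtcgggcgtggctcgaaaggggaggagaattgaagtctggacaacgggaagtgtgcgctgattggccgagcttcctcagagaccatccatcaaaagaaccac

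Depth was alike in the 6 libraries, between 22317065 and 25691096 estimated counts. Levels below are CPM, counts relative to the library total, scaled by TMM factors, listed in the order of replicates 1, 2 and 3. The targeted gene came first as a check. Pkm stood at 2333, 2740 and 1672 CPM in siNC and at 336, 540 and 309 CPM in siPkm2, lower in every pair (log2 fold change -2.51, SE 0.33, adjusted p 0.0738; with the replicate block -2.53, SE 0.13, adjusted p 0.00932; edgeR). Replicate 2 stood apart from the other two numbers in both groups. The summed CPM of 8 chondrocyte markers was 46410, 10012 and 45039 in siNC and 40136, 13966 and 38904 in siPkm2, and Col2a1, the main cartilage collagen, was at 36041, 8509 and 34842 CPM and at 28359, 11431 and 27866 CPM. Defining markers of cartilage were thus present in all 6 libraries and lowest in replicate 2.

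Libraries with the same replicate number moved together across genes, so 2 fits of edgeR's quasi-likelihood test are given: the main fit without the replicate number and a fit with it as a block. Without the block, 0 of 15269 genes (0.0%) passed an adjusted p under 0.05 with a fold over 2, although 17.6% had an unadjusted p under 0.05, and DESeq2 without a block called 430 genes (2.79%). With the block, 5.83% of genes passed both thresholds and 23.1% passed the adjusted p alone. None of the 10 genes was called by the main fit or by DESeq2 without a block, and 2 of the 10 had an unadjusted p under 0.05 in the main fit. With the block 0 of 10 passed both thresholds, and 4 of 10 passed the adjusted p alone: Trp53, Zmat3 and Phlda3 rose, as did 12.3% of all genes, and Sesn1 fell, as did 10.8%. The median log2 fold change of the 10 genes was 0.34 in the main fit and 0.45 with the block, against -0.02 and -0.01 over all genes tested. Upper-quartile scaling of the blocked fit gave 2 higher and 2 lower of the 10 genes, and 1478 higher (9.68%) and 2061 lower (13.5%) of all genes, in place of 1874 higher and 1650 lower.

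**Figure D1:**
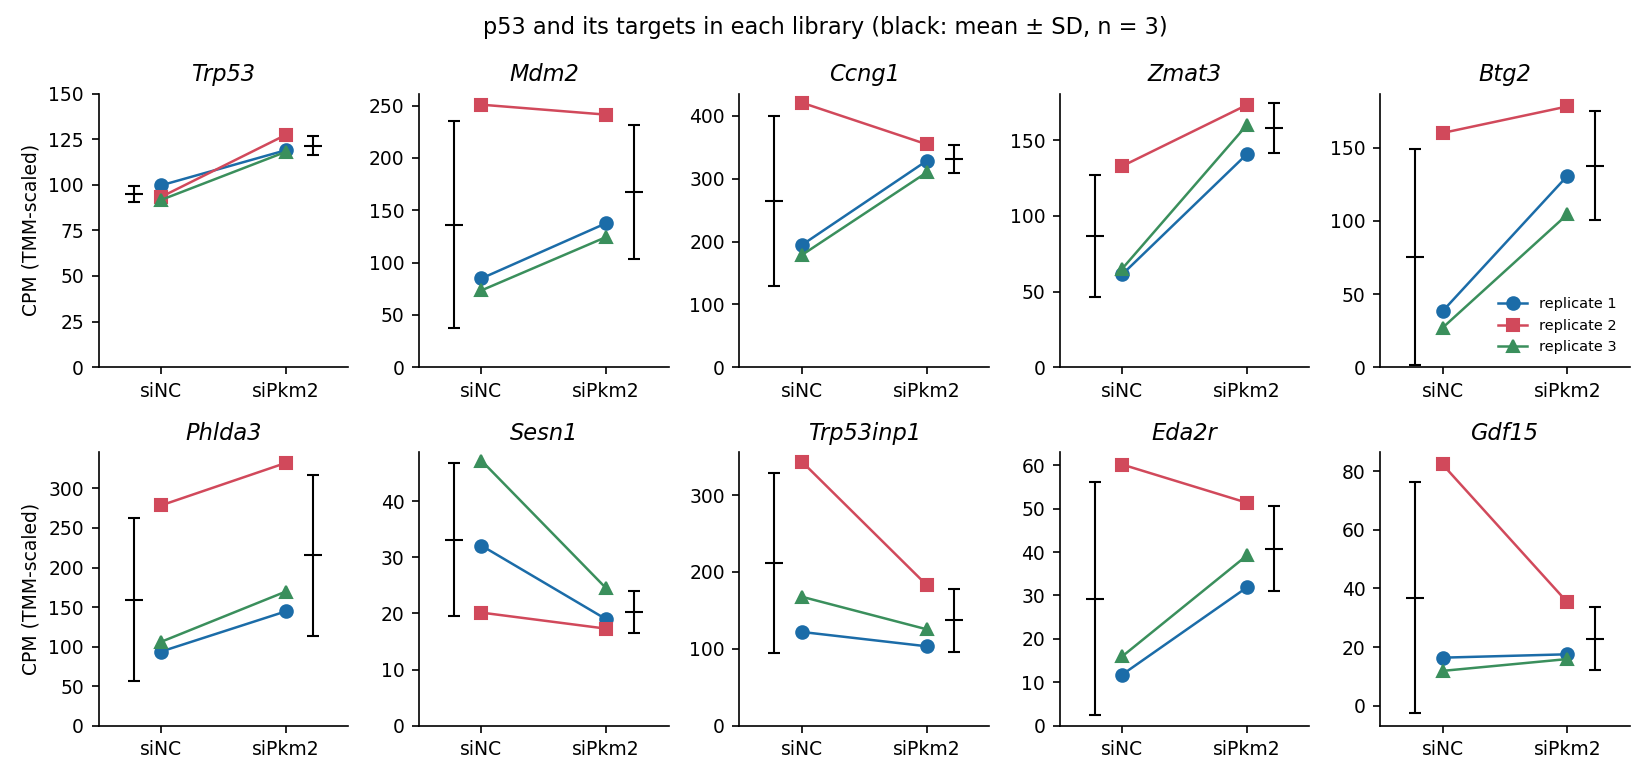
CPM of each of the 10 genes (vertical axis, one scale per panel) in siNC and siPkm2, with lines joining libraries of the same replicate number and black bars giving the mean ± SD of 3 libraries. Replicate 2 (squares) was the highest siNC library for 8 of the 10 genes, and the groups were separate for Trp53 and Zmat3.

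Trp53 (chr11:69580359-69591873, plus strand, GRCm38) was the steadiest of the 10 genes between replicates and rose slightly with Pkm2 knockdown. It measured 99.7, 93.3 and 91.7 CPM in siNC and 118.9, 127.3 and 118.0 CPM in siPkm2, that is 94.9 ± 4.22 and 121 ± 5.13 CPM (SD, n = 3). Every siPkm2 library lay above every siNC library, and replicate 2 did not stand out in siNC. The log2 fold change was 0.36 in both fits (SE 0.12, adjusted p 0.201 without the block; SE 0.08, adjusted p 0.0352 with it). With upper-quartile factors the blocked value was 0.29 and its adjusted p 0.0598, so the call rested on the scaling. An exact permutation test of 3 against 3 libraries gave p = 0.1, two-sided, the smallest that design allows.

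Mdm2 and Ccng1 act back on p53. Mdm2 (chr10:117688875-117710758, minus strand) encodes the ligase that degrades p53, and it measured 84.8, 250.9 and 73.4 CPM in siNC and 137.6, 241.4 and 124.4 CPM in siPkm2. Both replicate 2 libraries were high and nearly level with each other, whereas in pairs 1 and 3 the siPkm2 library was 1.62 and 1.69 times the siNC library. The log2 fold change was 0.30 (SE 0.53, adjusted p 0.823) and with the block 0.47 (SE 0.18, adjusted p 0.113). Ccng1 (chr11:40748552-40755311, minus strand), the gene of cyclin G1, a partner of the phosphatase that activates Mdm2, measured 194.4, 421.0 and 178.5 CPM in siNC and 328.3, 354.8 and 309.9 CPM in siPkm2. The 3 siPkm2 libraries were close together, above siNC replicates 1 and 3 and below siNC replicate 2. Its log2 fold change was 0.32 (SE 0.35, adjusted p 0.690) and with the block 0.44 (SE 0.22, adjusted p 0.204).

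Zmat3 and Btg2 act on RNA. Zmat3 (chr3:32334792-32366014, minus strand) encodes a zinc finger protein that binds RNA and controls splicing, and it measured 61.3, 132.9 and 65.1 CPM in siNC and 140.9, 173.4 and 160.1 CPM in siPkm2. All siPkm2 libraries lay above all siNC libraries, also above the high siNC replicate 2. The group means were 86.4 ± 40.3 and 158 ± 16.3 CPM (SD, n = 3), and the log2 fold change was 0.87 (SE 0.32, adjusted p 0.236) and with the block 0.96 (SE 0.19, adjusted p 0.0266). Some Zmat3 counts, and 1 of Mdm2, were fractional as deposited, so the assignment of some of their reads is uncertain. Btg2 (chr1:134075170-134079120, minus strand), an inhibitor of proliferation that brings the deadenylase complex to mRNAs, measured 38.3, 160.2 and 26.9 CPM in siNC and 130.8, 178.3 and 104.5 CPM in siPkm2. It was higher in siPkm2 in every pair, by 3.38, 1.11 and 3.82 times in pairs 1, 2 and 3, yet siNC replicate 2 lay above 2 of the 3 siPkm2 libraries. Its log2 fold change was the widest of the 10 genes with the block, 1.29, with an SE of 0.37 and an adjusted p of 0.05815, and was 0.87 (SE 0.67, adjusted p 0.552) without it.

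Trp53 and Zmat3 were thus the 2 of 10 genes whose groups did not overlap, both higher in siPkm2, where 12.0% of all genes tested were higher and 24.3% did not overlap in either direction. Without scaling factors on the library totals, 1 of the 10 genes (Trp53) kept groups that did not overlap.

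Phlda3, Sesn1 and Trp53inp1 bear on growth signalling and stress, and they did not move the same way. Phlda3 (chr1:135766119-135769136, plus strand) encodes a small protein that keeps the kinase Akt from the membrane, and it measured 93.7, 278.6 and 106.0 CPM in siNC and 144.6, 332.3 and 169.6 CPM in siPkm2. Replicate 2 was high in both groups, and each siPkm2 library lay above the siNC library of its number. The log2 fold change was 0.43 (SE 0.52, adjusted p 0.724) and with the block 0.52 (SE 0.11, adjusted p 0.0308). Sesn1 (chr10:41809935-41908424, plus strand), the gene of a sestrin that restrains mTORC1 and oxidative stress, went the other way, at 32.1, 20.1 and 47.2 CPM in siNC and 19.0, 17.3 and 24.5 CPM in siPkm2. Every pair was lower in siPkm2, and siNC replicate 2, high for most of the 10 genes, was here the lowest siNC library. The log2 fold change was -0.71 (SE 0.33, adjusted p 0.322) and with the block -0.65 (SE 0.16, adjusted p 0.0406). Trp53inp1 (chr4:11156431-11174379, plus strand), a stress protein with a part in p53 phosphorylation and autophagy, measured 121.9, 343.5 and 167.7 CPM in siNC and 103.3, 183.0 and 125.4 CPM in siPkm2. It was lower in siPkm2 in every pair, although the high replicate 2 of siNC made the groups overlap. Its log2 fold change was -0.62 (SE 0.42, adjusted p 0.496) and with the block -0.52 (SE 0.14, adjusted p 0.0539), and with upper-quartile factors and the block -0.59 (adjusted p 0.0372).

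Eda2r and Gdf15 carry signals between cells. Eda2r (chrX:97333840-97377216, minus strand), a receptor of the tumour necrosis factor family for ectodysplasin A2, measured 11.8, 60.2 and 16.0 CPM in siNC and 31.9, 51.4 and 39.2 CPM in siPkm2. In pairs 1 and 3 siPkm2 was 2.64 and 2.41 times siNC, whereas siNC replicate 2 was the highest of all 6 libraries. The log2 fold change was 0.48 (SE 0.62, adjusted p 0.749) and with the block 0.82 (SE 0.35, adjusted p 0.138). Gdf15 (chr8:70629393-70632456, minus strand), a secreted stress cytokine of the TGF-β superfamily, measured 16.4, 82.3 and 11.9 CPM in siNC and 17.5, 35.3 and 15.9 CPM in siPkm2. Apart from replicate 2 the libraries of both groups lay close together. The log2 fold change was -0.69 (SE 0.77, adjusted p 0.703) and with the block -0.26 (SE 0.33, adjusted p 0.585).

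Within pairs the 10 genes fell into 3 shapes. Trp53, Zmat3, Phlda3 and Btg2 were higher in siPkm2 in all 3 pairs, as were 30.5% of all genes tested. Sesn1 and Trp53inp1 were lower in all 3 pairs, as were 30.6% of all genes. Mdm2, Ccng1, Eda2r and Gdf15 were higher in pairs 1 and 3 and lower in pair 2, a shape shown by 9.1% of all genes. For Mdm2 the pair 2 difference was small, at -0.06 on the log2 scale. The median log2 difference of the 10 genes was 0.66 in pair 1, -0.14 in pair 2 and 0.72 in pair 3, with a pseudocount of 0.5 CPM, against -0.015, 0.0051 and -0.0040 over all genes.

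**Figure D2:**
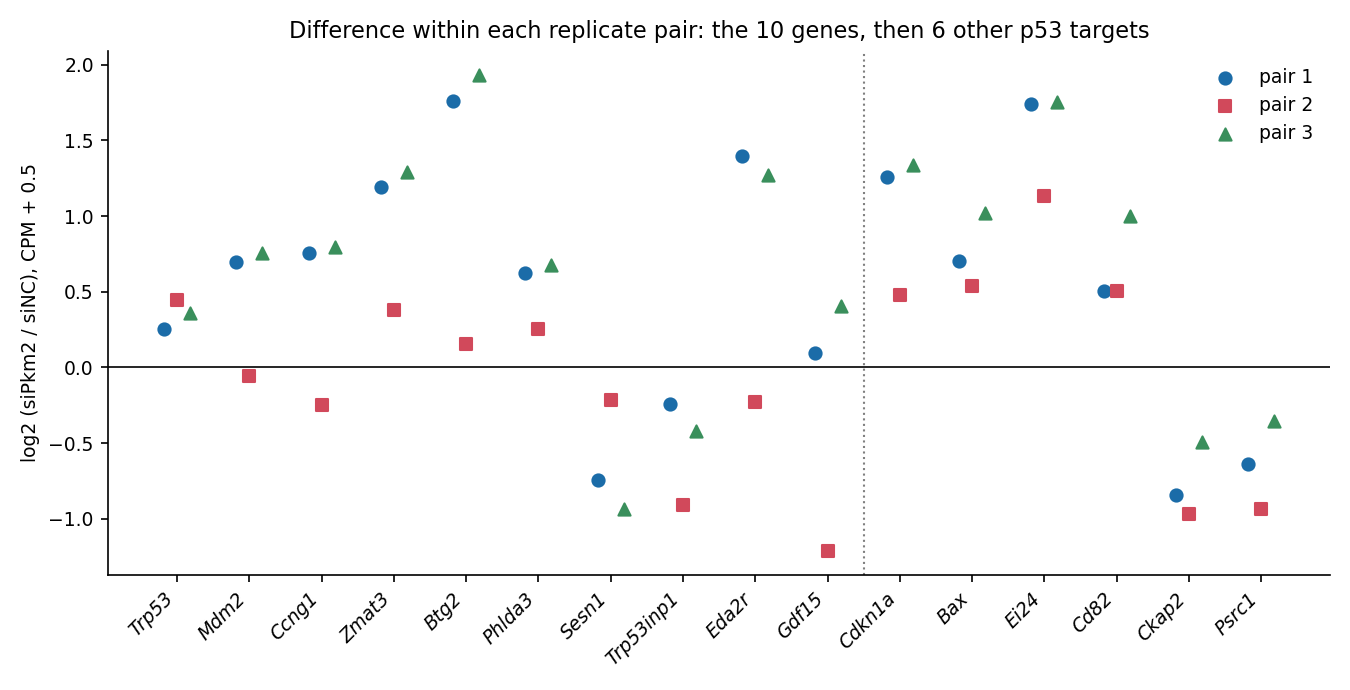
Difference between siPkm2 and siNC within each replicate pair, as log2 of the ratio of CPM + 0.5 (vertical axis). The 10 genes come first, and 6 other p53 targets stand right of the dotted line. The 6 were picked for a low unadjusted p in the blocked fit or as best known, and need not be typical of their list. Pairs 1 and 3 lie close together for most genes, while for Mdm2, Ccng1, Eda2r and Gdf15 pair 2 lies on the other side of 0.

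The control library of pair 2 was where the levels of the 10 genes departed most from the other controls. In siNC replicate 2, 8 of the 10 genes were more than 2 times the mean of siNC replicates 1 and 3, as were 9.19% of all genes tested. Gdf15 stood at 5.68 times that mean, Btg2 at 4.86 times, Eda2r at 4.23 times and Mdm2 at 3.16 times. Phlda3 stood at 2.78 times, Trp53inp1 at 2.37 times, Ccng1 at 2.26 times and Zmat3 at 2.10 times. Trp53 was level, at 0.976 times, and Sesn1 lower, at 0.515 times. The summed CPM of the 10 genes was 754, 1843 and 784 in siNC and 1173, 1694 and 1191 in siPkm2, so the siNC replicate 2 library exceeded all 3 siPkm2 libraries. Without pair 2 and with the block, 7 of the 10 genes were higher at an adjusted p under 0.05 (19.8% of all genes were) and 2 were lower (19.3% of all genes), with a median log2 fold change of 0.68. Gdf15 was the gene not called there, at 0.25 (adjusted p 0.216). Zmat3, Eda2r and Btg2 also passed the fold of 2, at 1.24, 1.36 and 1.85, as did 4.94% of all genes upwards and 10.8% in either direction. Pair 2 was left out after its values were seen, and the median log2 difference of the 10 genes there was -0.14. The larger values without it follow from that choice and are no support of their own. That fit had 1 residual degree of freedom, and with pair 1 or pair 3 left out instead 0 genes of the table passed both thresholds.

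Other gene groups moved with replicate 2 as well. Interferon-stimulated genes summed to 56.8, 1779 and 83.4 CPM in siNC and to 1154, 3200 and 916 CPM in siPkm2 over 10 genes, and all 10 were higher in siPkm2 in every pair, as were 30.5% of all genes. Without the block 0 of these 10 was called and the median log2 fold change was 1.63. With the block 3 of the 10 rose at an adjusted p under 0.05 (12.3% of all genes did), with a median log2 fold change of 3.46, for example Ifit1, an antiviral protein that binds foreign RNA, at 3.91 (adjusted p 0.0445), against 1.98 (adjusted p 0.547) without the block. Macrophage markers were scarce: 5 of 8 stayed under 1 CPM in every library, among them Adgre1, Ptprc and the 3 C1q genes, and the summed level ranged from 7.72 to 60.9 CPM in siNC and from 10.1 to 38.4 CPM in siPkm2, with Cd68 highest in replicate 2 of both groups. Endothelial markers stayed under 1 CPM for 5 of 6 genes, and their summed level ranged from 1.18 to 2.38 CPM in siNC and from 2.45 to 2.79 CPM in siPkm2. Markers of synovial fibroblasts summed to between 132 and 326 CPM in siNC and between 331 and 447 CPM in siPkm2, with 1 of 6 (Pi16) under 1 CPM throughout, 3 risen with the block (12.3% of all genes rose) and Thy1 lower in all 3 pairs (log2 fold change with the block -0.92, adjusted p 0.108). The part of these cell types, of the interferon genes and of replicate 2 in the values of the p53 targets was not tested. In bulk RNA, a change in the number of cells of a type and a change in RNA per cell cannot be told apart.

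**Figure D3:**
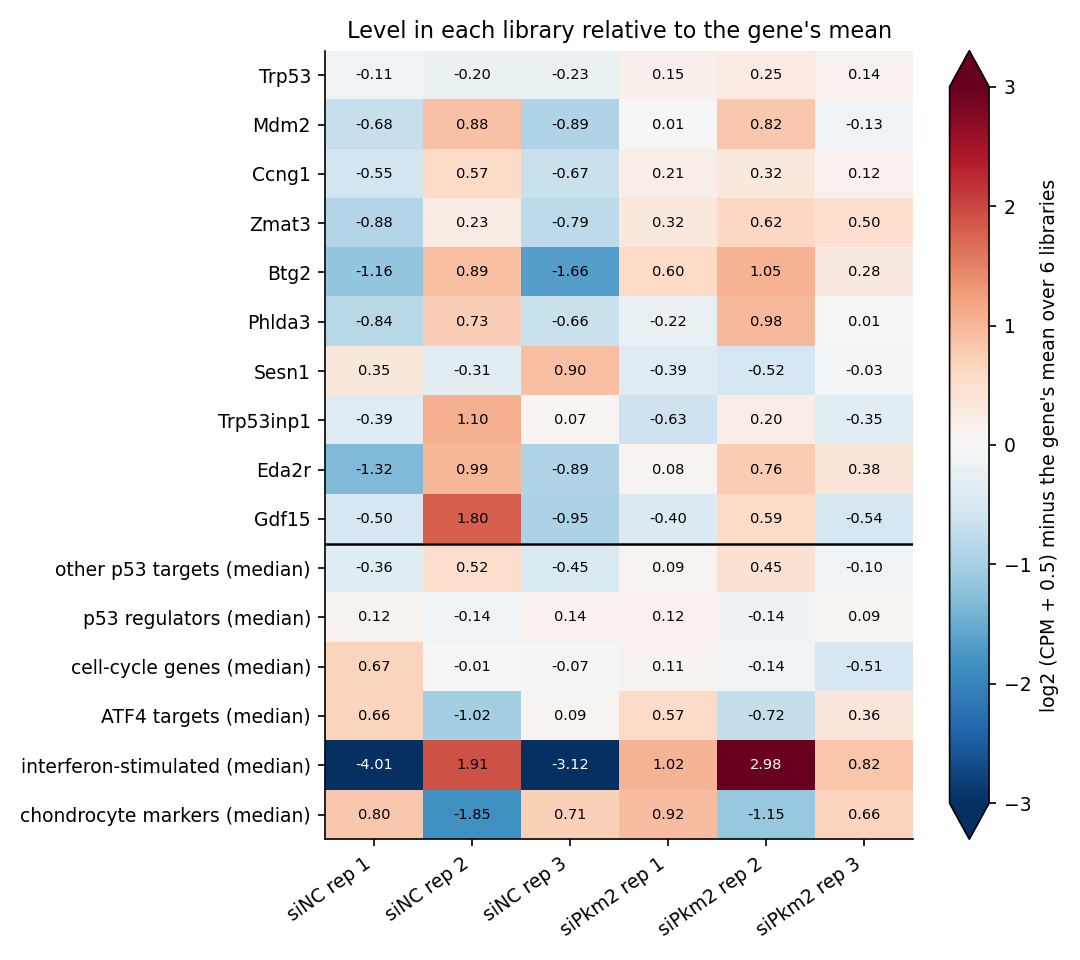
Level of each of the 10 genes in each library as log2 (CPM + 0.5) minus the gene's mean over 6 libraries (colour and printed value), with the median over the genes of 6 other lists in the lower rows. The siNC replicate 2 column shows most p53 targets and the interferon-stimulated genes high and the chondrocyte markers low, and Trp53 varies little along its row.

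Per transcript length the order of the 10 genes was led by Phlda3. In siNC, TPM values averaged 206 for Phlda3, 128 for Ccng1, 108 for Mdm2, 94.8 for Trp53, 58.9 for Trp53inp1, 50.03 for Gdf15, 48.0 for Btg2, 20.1 for Sesn1, 19.0 for Zmat3 and 10.9 for Eda2r. The ranges of all neighbours in that order overlapped, so no step of it exceeded the spread between libraries. In siPkm2 the order began with the same 4 genes, at 270.4, 153, 120 and 118 TPM, and Btg2 followed at 83.5 TPM. The ranges of neighbours were separate at 3 steps there, between Phlda3 and Ccng1, between Btg2 and Trp53inp1, and between Gdf15 and Eda2r. Zmat3 stood above Sesn1 in siPkm2, at 34.9 against 11.9 TPM, with no overlap between 31.9 to 38.6 and 10.4 to 14.8 TPM.

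**Figure D4:**
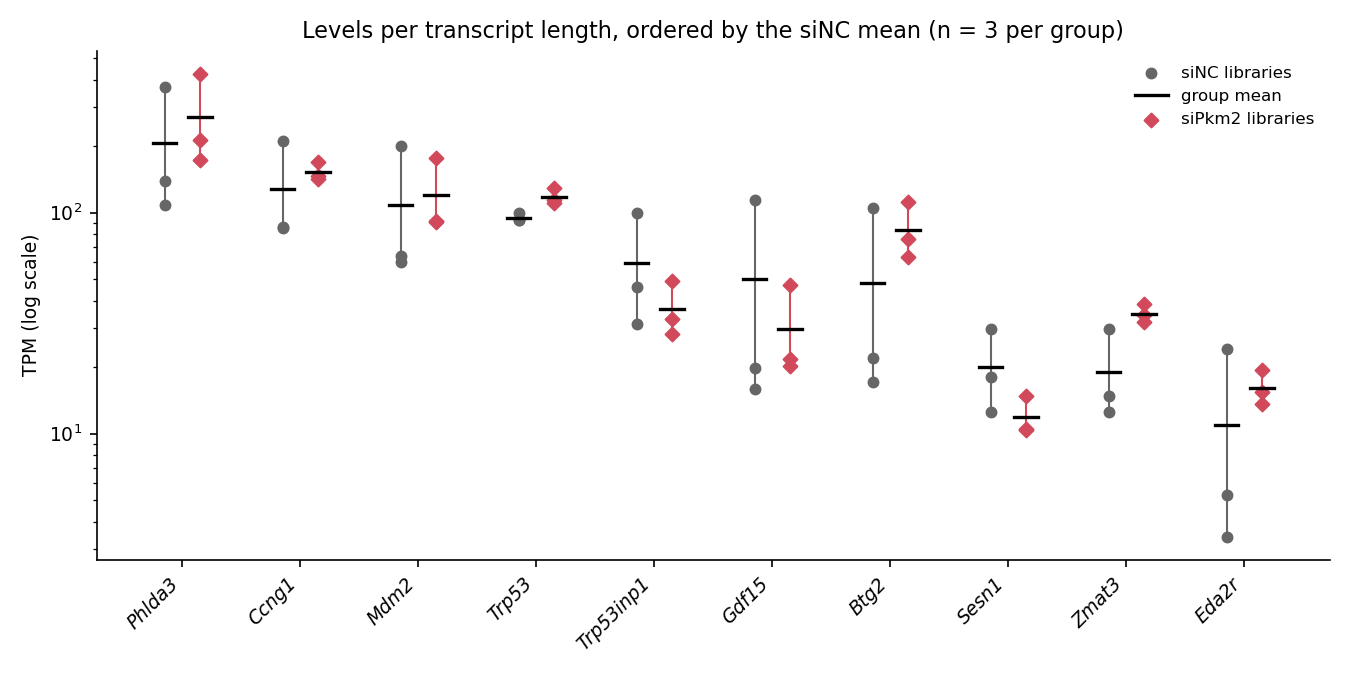
TPM of each of the 10 genes on a log axis, with one point per library, a line from the lowest to the highest library and a black bar at the mean of each group (n = 3). Eda2r was the lowest gene in siNC and Sesn1 in siPkm2, and Phlda3 was the highest in both groups.

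Of other known p53 targets more rose than fell with the block, and those that fell were about as frequent as among all genes. Of 28 listed, 27 were tested; Trp73 lay at or near 0. The main fit called none of them. With the block and no threshold on the fold, 7 rose and 3 fell, where 12.3% and 10.8% of all genes did, and the median log2 fold change of the 27 was 0.33. In siNC replicate 2, 16 of the 27 exceeded 2 times the mean of the other controls, as did 9.19% of all genes. Cdkn1a, the gene of the cell-cycle inhibitor p21, measured 175.5, 636.3 and 161.0 CPM in siNC and 421.0, 888.4 and 407.0 CPM in siPkm2. It rose by a log2 fold change of 1.03 with the block (SE 0.19, adjusted p 0.0222), against 0.82 and an adjusted p of 0.549 without it. Ei24, a protein of the endoplasmic reticulum with a part in autophagy, moved furthest, from 38.7, 80.1 and 38.8 CPM to 130.4, 175.9 and 131.9 CPM (log2 fold change with the block 1.55, SE 0.15, adjusted p 0.0109). For Ei24 all siPkm2 libraries lay above all siNC libraries, and the same held for Bax, which opens the mitochondrial outer membrane in apoptosis, at 97.8, 116.8 and 79.2 CPM against 159.3, 170.1 and 161.6 CPM. Of the 27 targets, 7 had groups that did not overlap and were higher, and 1 was lower, where 12.0% and 12.3% of all genes were. Bax rose by 0.76 with the block (SE 0.12, adjusted p 0.0165), and Cd82, a tetraspanin of the cell surface, rose by 0.67 (SE 0.13, adjusted p 0.0226).

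The 3 targets that fell with the block were Ckap2, at -0.78 (SE 0.12, adjusted p 0.0164), Psrc1, at -0.66 (SE 0.13, adjusted p 0.0257), and Rrm2b, at -0.68. Ckap2 and Psrc1 encode proteins of the mitotic spindle, and Rrm2b a subunit of ribonucleotide reductase. Sesn2, the paralog of Sesn1, rose by 0.45 (adjusted p 0.0289) while Sesn1 fell by 0.65. Rrm2b and Sesn2 were named after their values were seen. Bbc3 and Pmaip1, which encode the apoptosis inducers Puma and Noxa and were likewise picked afterwards, had blocked log2 fold changes of -0.02 (SE 0.12, adjusted p 0.936) and 0.34 (SE 0.58, adjusted p 0.689).

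Genes that act on p53 itself mostly did not pass the test. Of 18 regulators, 0 rose and 3 fell with the block, a share of 16.7% against 23.1% of all genes (12.3% higher, 10.8% lower). Without the block edgeR called none, and DESeq2 called Cdkn2a. Mdm4, the partner of Mdm2 that masks the activation domain of p53, fell from 145.9, 304.8 and 202.5 CPM to 84.8, 169.4 and 120.9 CPM (log2 fold change -0.79, SE 0.08, adjusted p 0.0110). The drop was alike in the 3 pairs, at -0.78, -0.85 and -0.74, whereas Mdm2 was higher in pairs 1 and 3 and nearly level in pair 2, at 0.70, -0.06 and 0.76 for pairs 1, 2 and 3. Cdkn2a, whose locus encodes both p16 and the Mdm2 inhibitor ARF, fell from 19.2, 15.3 and 16.2 CPM to 1.40, 4.39 and 3.29 CPM (log2 fold change -2.54, SE 0.38, adjusted p 0.0161), and counts per gene do not separate the 2 products. Trp53bp1, a DNA repair protein, fell by 0.37 (SE 0.08, adjusted p 0.0275). Usp7, the protease that stabilises Mdm2 and p53, had a log2 fold change of 0.27 (adjusted p 0.0554), Chek2, a kinase that phosphorylates p53, of -0.59 (adjusted p 0.0672), and Atr, a kinase of replication stress, of -0.28 (adjusted p 0.0687).

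Cell-cycle genes, which p53 holds down through p21 and the DREAM repressor complex, were mostly lower in siPkm2. With the block 12 of 20 fell, against 10.8% of all genes, and 1 rose, against 12.3%. The median log2 fold change was -0.48, and 16 of the 20 were lower in siPkm2 in all 3 pairs, as were 30.6% of all genes. The main fit called none. Ccna2, cyclin A2, fell by 0.88 (SE 0.08, adjusted p 0.0109), and Aurka, a mitotic kinase, fell by 1.08 (SE 0.13, adjusted p 0.0122). Mki67, the proliferation marker Ki-67, fell from 215.7, 103.2 and 130.2 CPM to 96.1, 67.1 and 63.2 CPM, or by 0.95 (SE 0.13, adjusted p 0.0141). Bub1, Cenpf and Cdc20, which act in chromosome segregation, fell by 0.79, 0.84 and 0.58. Mcm3, a subunit of the replicative helicase, was the gene that rose, by 0.40 (adjusted p 0.0358). Mcm2 and Mcm5, of the same helicase, had 0.29 (adjusted p 0.0562) and 0.12 (adjusted p 0.380) with the block. Mcm2, Mcm3 and Mcm5 were higher in siPkm2 in all 3 pairs, and were named after their values were seen. With upper-quartile factors and the block 0 of the 20 rose and 14 fell. In siNC this list did not share the high replicate 2 of the p53 targets: 0 of 20 exceeded 2 times the mean of the other controls, and the summed level was highest in siNC replicate 1.

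**Figure D5:**
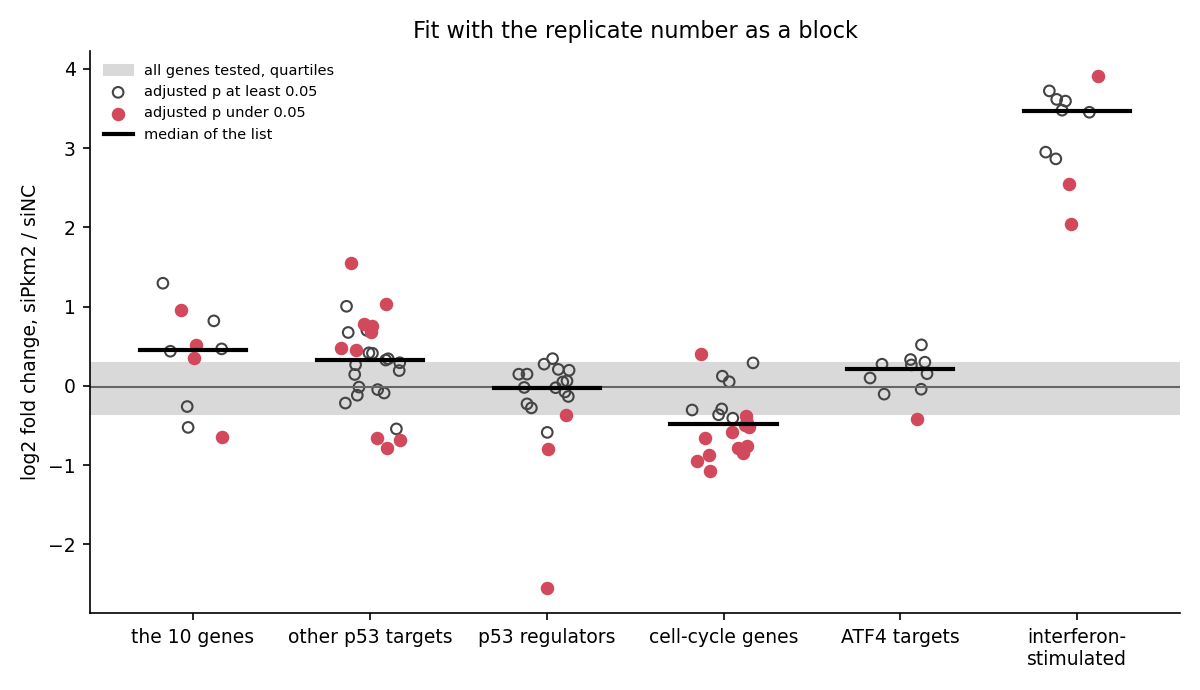
Log2 fold change of siPkm2 over siNC with the replicate block (vertical axis) for the genes of 6 lists, filled where the adjusted p was under 0.05, with a bar at each list's median and a grey band for the quartiles of all 15269 genes tested. The medians were 0.45 for the 10 genes, 0.33 for other p53 targets and -0.48 for cell-cycle genes.

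The genes most like Mdm2 and Trp53 in their levels were found by Pearson's r of log2 CPM over the 6 libraries, among 9769 genes with a mean of at least 10 CPM. For Mdm2 they included Esd (r = 0.998), Zfp365, Axl and Fosl1 (0.995 each), all with both replicate 2 libraries high. Esd, an esterase, measured 99.0, 397.6 and 77.2 CPM in siNC and 185.4, 361.6 and 148.3 CPM in siPkm2. For Trp53 they were Ilrun (0.991), Ttc7 (0.988), Actr1a, 1600014C10Rik and Vps25 (0.987 each), and for Ilrun the values were 89.4, 86.7 and 83.1 CPM against 121.8, 137.9 and 115.9 CPM. These r values are a description over 6 libraries that come in pairs, chosen as the highest of many, and carry no test.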

How the data were processed

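RNA-seq libraries of siNC (n = 3) and siPkm2 (n = 3) chondrocytes were analysed from the processed tables. The authors deposited estimated counts per gene, not normalized, of which 13.1% were fractional, and TPM values; aligner, counter and annotation are not given in the sources used here, and the submitters' processing notes name mm9 and edgeR with no role. The authors' own fold change (a ratio), log2 fold change and p-value columns were deposited with them and were not used. Positions are from GENCODE M21 on GRCm38, in which 94.0% of identifiers were found.

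Counts were rounded and tested in R 4.3.3 with edgeR 4.0.16 (filterByExpr, TMM, quasi-likelihood test, Benjamini-Hochberg adjustment over all 15269 genes). A gene was called at an adjusted p under 0.05 and a fold over 2, the threshold of the supplementary methods. Total counts lay between 22317065 and 25691096. The fits were tested on simulated data. Other settings tried were scaling by RLE or by the upper quartile, the Wald test of DESeq2 1.42.0, other filters, limma 3.58.1 on log2(TPM + 1) and log2(TPM + 0.1), leaving out each library, and a block for replicate number.

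Both groups carry replicate numbers 1, 2 and 3 in their titles. Deviations from the group means correlated at 0.66, 0.76 and 0.65 between libraries of the same number and at 0.16 or less otherwise, so the numbers pair the libraries.

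The 10 genes and all lists were chosen with earlier results of these data known. Named were the 10 genes, Pkm, Cdkn1a, Bax, Mdm4 and the 5 genes most like Mdm2 and Trp53. Of each other list at most 6 genes were named, those with the lowest unadjusted p in the blocked fit. Of the interferon, stress and cell type lists examples were named, more than the planned 3 for the macrophage and stress lists. Genes said to be chosen after their values were seen are outside this rule. One gene that this rule names is not reported here.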

Additional observations from a re-analysis of the deposited data

How the results depend on the processing

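Of 220 values of the log2 fold change of the 10 genes and Pkm over 20 settings, 205 kept their direction and their side of both thresholds, 11 newly passed them and 4 changed sign. The sign changes came from replicate 2. With a library left out Mdm2 ranged from -0.055 (without siPkm2 replicate 2, adjusted p 0.974) to 1.09, Phlda3 from -0.018 (without siPkm2 replicate 2, adjusted p 0.989) to 1.11, and Gdf15 from -1.14 to 0.70 (without siNC replicate 2, adjusted p 0.347). The other 7 genes kept their sign, with ranges of 0.48 to 2.08 for Btg2, 0.11 to 1.56 for Eda2r, 0.11 to 0.83 for Ccng1, 0.68 to 1.33 for Zmat3, 0.32 to 0.40 for Trp53, -0.97 to -0.37 for Sesn1 and -0.89 to -0.07 for Trp53inp1. Gdf15 was also at 0.25 with the block and pair 2 left out. The cause was not tested. The blocks combined with another choice, the pair left out, and the changes of unit for the overlap were added after seeing the data.

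Over all genes, the count past both thresholds was 0 in the main fit, 3 with upper-quartile factors, 430 with DESeq2, 9 with no filter, 3 with at least 10 counts in every library, and 1 with log2(TPM + 1) or log2(TPM + 0.1). Leaving out a library gave 0 to 105 genes, the highest without siNC replicate 2. With the replicate block it was 890, and then 900 with RLE factors, 935 with upper-quartile factors, 1017 with DESeq2, 1639 with pair 2 left out and 3524 with no threshold on the fold. Of the 10 genes, leaving out a library gave 0 to 1 (Zmat3 without siNC replicate 2, at 1.33, adjusted p 0.0446), the block with pair 2 left out 3, and the block with no threshold on the fold 4. DESeq2 with the block and no threshold on the fold called 5 higher and 2 lower. Among the 15269 genes tested, it called 2165 higher and 1721 lower.

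The counts of the other lists are to be read against all genes, of which DESeq2 called 2.79% and the block 5.83%. With pair 2 left out the block called 10.8% of all genes, and with no threshold on the fold 23.1%. Of other p53 targets, DESeq2 called 1, the block 2 and leave-outs 0 to 1. The block called 7 with pair 2 left out, 2 with RLE factors and 1 with upper-quartile factors. It called 3 with DESeq2 and 10 with no threshold on the fold. Of the regulators, 1 was called by DESeq2 and by the block, alone or with pair 2 left out, RLE factors, upper-quartile factors or DESeq2, and 3 by the block with no threshold on the fold. Of the cell-cycle genes, the block called 1, with pair 2 left out 2, with RLE factors 1, with upper-quartile factors 2, with DESeq2 1 and with no threshold on the fold 13. For the named genes, calls that the block changed are given beside the results, and the main fit called none of them. Groups did not overlap for 2 of the 10 genes, and for 1 without scaling factors.

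With 3 libraries a group, 2 residual degrees of freedom with the block and 1 without a pair, variance estimates lean on information shared between genes.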

Other observations

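A list of 10 genes, labelled ATF4 targets in the figures, held genes driven by ATF4, the transcription factor of the integrated stress response. It also held Atf4 itself. The summed level of the list was lowest in replicate 2 of both groups. That level was 1743, 642 and 1222 CPM in siNC and 1553, 728 and 1335 CPM in siPkm2. With the replicate block 0 of 10 rose and 1 fell (12.3% and 10.8% of all genes did): Psat1, an enzyme of serine synthesis, by 0.42 on the log2 scale (edgeR, adjusted p 0.0391), against -0.48 and an adjusted p of 0.706 without the block. The median log2 fold change was 0.21. Atf3, Ddit4 and Slc7a11 went against the list in siNC, where replicate 2 was their highest library. Ddit4 and Slc7a11 were also highest in replicate 2 within siPkm2, whereas Atf3 was not. Atf3, which is induced by many stresses, was at 14.6, 35.4 and 6.17 CPM in siNC and measured 20.4, 19.2 and 12.0 CPM in siPkm2.

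Osteoblast markers were also lowest in replicate 2, with a summed level of 423, 34.7 and 252 CPM in siNC and 171, 43.7 and 81.7 CPM in siPkm2. Of 6 genes, 4 were tested and 1 fell with the block, as did 10.8% of all genes. Muscle markers stayed under 1 CPM in every library for 4 of 8 genes, and their summed level ranged from 6.78 to 8.4 CPM in siNC and from 6.61 to 13.6 CPM in siPkm2.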
